A study of Drosophila melanogaster with 18 samples.

Results

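ChIPCRM2497 is a mesodermal enhancer of Drosophila melanogaster of which mutant versions were made with the sites for Deaf1, Schlank and CG12236-PB destroyed alone or together. Its constructs were taken by name, as all tags whose construct name opens with ChIPCRM2497, and the suffix gives the mutated motifs, with D for Deaf1, S for Schlank, 1 for CG12236-PB and WT for none. They comprise 23 of the 312 tags and 7 of the 93 constructs of the series, and the construct with Deaf1 and CG12236-PB sites mutated together was not analysed here, so the CG12236-PB mutation has no value on the Deaf1 background, nor the Deaf1 mutation on the CG12236-PB background. QeFS, which reads reporter tags from flow-sorted cells of embryos, was run on a pool of fly lines that each carry 1 reporter at the attP40 site. Males of the pool were crossed to females that express the rat surface protein CD2 from the twi promoter or from the mef2[IE-D5] enhancer, which marks fusion-competent myoblasts. Embryos laid within 2.25 hours were aged for 11 hours at 18 °C. The twi:CD2+ cells of 3 collections stand for the whole mesoderm, and the mef2:CD2- cells of 6 collections, 3 in each of 2 weeks, are all cells left unmarked by the myoblast driver, mesodermal and other. All groups carried the same reporter pool and differed in the driver line, the sort gate and the days of collection, which the populations do not share, so that these cannot be told apart in any comparison of the populations. No endogenous gene was counted, so the cell populations were not checked against markers here.

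An enhancer drives a gene when sequence-specific transcription factors bind their sites in it, and a reporter with one site destroyed shows how much of the activity rests on that site in its own surroundings. Deaf1 is a SAND-domain transcription factor that binds TTCG motifs, Schlank is the ceramide synthase of the fly and has a homeodomain besides its catalytic part, and CG12236-PB is one protein isoform of a zinc finger gene with little known function. Twist, whose promoter drives CD2 in the mesoderm, is the master regulator of that germ layer, and fusion-competent myoblasts are the mesodermal cells that fuse with founder cells to form muscle fibres.

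In the stretch compared here, the mutants of the Deaf1 and Schlank sites differ from the wild type by single bases. Positions are counted from 1 at the first base after the barcode that opens each synthesised sequence, and the first 391 bases of that count were compared. Every construct with the Deaf1 sites mutated carries G27C and C42G, and every construct with the Schlank sites mutated carries C174G and A178G, with the wild-type base named first. The combined mutants repeat these changes exactly, and the CG12236-PB mutant has 0 changes in the compared stretch. Its substitutions, and any changes of the other mutants beyond that stretch, were not read here.

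Each construct was read out through short random tags of 19 or 20 bases, which differ from each other at 8 positions or more and lie, with the reporter, at attP40 on chromosome arm 2L. Those tags of the wild type, of the CG12236-PB mutant, of the Deaf1 and Schlank double mutant and of the triple mutant on which the results below turn are printed.
WT tag 1: actcggcttaaaggccccag
WT tag 2: ggtacgttagagcccccctt
CG12236-PB mutant tag 1: ccgcggcctacacgagccaa
CG12236-PB mutant tag 3: tcccccaaaatgaaaacagg
Deaf1 and Schlank mutant tag 1: gctaacggaggacaaaaaa
Deaf1 and Schlank mutant tag 2: ttggaccctaatccatccgc
Triple mutant tag 1: cttctacgtacccatgataa
Triple mutant tag 2: gcctccaattacttccctaa
Triple mutant tag 3: tttaaagagcgatcttcgcg
All are written from 5′ to 3′ in lower case, with no base singled out. Tag 1 of the Deaf1 and Schlank mutant fell under the minimum of DNA counts in every collection, so that construct rests on tag 2 alone. Tag 3 of the wild type and tag 2 of the CG12236-PB mutant are not printed. Their DNA counts came to 3 and 0 in all mef2:CD2- collections together, and to 0 in twi:CD2+ cells.

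Activity is, for 1 tag and 1 collection, the share of the unique molecular identifiers (UMIs) of the RNA library that fell on the tag over its share of those of the DNA library, so that 1 means as much RNA as the average copy of the pool. The libraries held 317396 to 621449 DNA UMIs and 813922 to 1366066 RNA UMIs in twi:CD2+ cells, and 54038 to 248151 DNA UMIs and 560294 to 1201998 RNA UMIs in mef2:CD2- cells. The 7 constructs took 8.31 to 9.31% of the UMIs of a library for twi:CD2+ cells and 7.30 to 9.09% for mef2:CD2- cells. With at least 65 DNA UMIs required, 20 of the 23 tags gave a value in one population or both. In twi:CD2+ cells 19 tags of 6 constructs gave 55 observations, after the 3 observations of the Deaf1 and Schlank mutant were set aside for being fewer than 4. In mef2:CD2- cells 20 tags of 7 constructs gave 112 observations. The median DNA count behind an observation was 1908 UMIs for twi:CD2+ cells and 414 UMIs for mef2:CD2- cells. Counting error alone gave an SD of 0.039 (median, log2 scale) for twi:CD2+ cells and 0.079 for mef2:CD2- cells. The SD of one tag between collections was 0.64 on the same scale for twi:CD2+ cells and 0.55 for mef2:CD2- cells, many times the counting error.

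The wild-type enhancer was active above the average of the pool in every collection. Its mean activity was 1.38 ± 0.301 for twi:CD2+ cells (SD, n = 6 observations of 2 tags) and 1.30 ± 0.323 for mef2:CD2- cells (SD, n = 12 observations of 2 tags). In twi:CD2+ cells, tag 1 of the wild type gave 1.39, 1.32 and 1.49 in collections 1 to 3, and tag 2 gave 1.88, 0.971 and 1.24. In mef2:CD2- cells the 12 values ran from 1.04 through a median of 1.23 to 2.18. The lowest single wild-type value was close to 1 in both populations. Among 11 wild-type enhancers of the pool with a value, this one ranked 4 from the highest in twi:CD2+ cells, where they ran from 0.037 to 7.90 with a median of 0.516. It ranked 2 of 11 in mef2:CD2- cells, in a range from 0.025 to 6.11 with a median of 0.562.

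Of the single mutations, loss of the CG12236-PB sites gave the lowest activities. The single mutant averaged 0.873 ± 0.283 in twi:CD2+ cells (SD, n = 6 observations of 2 tags), against 1.38 for the wild type. Its tag 1 gave 0.625, 1.03 and 0.751 in collections 1 to 3 of twi:CD2+ cells, and its tag 3 gave 0.834, 0.635 and 1.36. Only 2 of these 6 values lay above the lowest wild-type value of 0.971, and the ranges overlap there. The mean of the mutant was below that of the wild type in 3 of 3 collections, with a fold change of 0.632 overall and 0.446 to 0.775 per collection (exact permutation test on ranks, adjusted p = 0.087 over all 241 pairs of constructs of 1 enhancer in the population). The call was lost with any 1 of the 3 collections left out (exact permutation test, adjusted p from 0.20 to 0.54) and with a term for each collection (replicate block, adjusted p = 0.12). Without either tag of a construct fewer than 4 observations were left and no test was made. In mef2:CD2- cells the mutant averaged 0.812 ± 0.290 (SD, n = 12), with values from 0.246 through a median of 0.861 to 1.43, against 1.30 for the wild type. Here it was lower in 6 of 6 collections, by a fold change of 0.623 overall and 0.350 to 0.901 per collection (exact permutation test, adjusted p = 0.00024 over 273 pairs). A single value of tag 3, 1.43 in collection 3, lay within the upper wild-type range, and the next highest was 0.993, below every wild-type value. Within week 1 the fold change was 0.779 and within week 2 it was 0.480, both called (exact permutation tests, adjusted p = 0.043 and 0.012).

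The same mutation was measured again where the Schlank sites were already gone. In twi:CD2+ cells the Schlank and CG12236-PB double mutant averaged 0.889 ± 0.307 (SD, n = 11 observations of 4 tags), against 1.52 ± 0.649 for the Schlank mutant (SD, n = 11 observations of 4 tags). The double mutant was lower in 3 of 3 collections, with a fold change of 0.586 (exact permutation test, adjusted p = 0.039). Its 3 collection means were 0.816, 1.01 and 0.832, against 1.48, 1.32 and 1.83 for the Schlank mutant, so the collection means do not overlap. The call was lost without collection 1 or collection 3 (exact permutation test, adjusted p = 0.17 and 0.23) and without tag 1 or tag 4 of the double mutant (both 0.12). For mef2:CD2- cells the double mutant averaged 0.838 ± 0.278 (SD, n = 19), against 1.07 ± 0.445 for the Schlank mutant (SD, n = 24), and was lower in 6 of 6 collections. That fold change of 0.787 did not pass the threshold of 0.1 over the whole table (exact permutation test, adjusted p = 0.11), and it turned to 1.12 when observations down to 20 DNA UMIs were kept. It was called lower without collection 4 or 5 (exact permutation, adjusted p = 0.039 and 0.087), without tag 2 or 4 of the Schlank mutant (0.053 and 0.068) and without tag 3 of the double mutant (0.016).

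The third background, with both the Deaf1 and the Schlank sites gone, gave no call with all tags kept. The triple mutant averaged 1.05 ± 0.711 in mef2:CD2- cells (SD, n = 15 observations of 3 tags), against 1.19 ± 0.433 for the Deaf1 and Schlank mutant (SD, n = 6 observations of 1 tag), a fold change of 0.882 (exact permutation test, adjusted p = 0.34). Without tag 3 of the triple mutant it was 0.627 and called (exact permutation test, adjusted p = 0.072), and without its tag 2 it was 1.07. In twi:CD2+ cells the triple mutant averaged 0.824 ± 0.472 (SD, n = 9 observations of 3 tags). Beside it stand only the values 1.56, 0.800 and 1.22 of the single tag of the Deaf1 and Schlank mutant, which were not tested.

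Averaged over its backgrounds, with tags as the units, the CG12236-PB mutation changed log2 activity by -0.70 in twi:CD2+ cells (6 mutated and 6 intact tags on 2 backgrounds, exact permutation of tags within backgrounds, p = 0.0095, adjusted p = 0.069 over all 36 enhancer and motif combinations). The 95% interval of the fit to tag means, with the spread pooled over all constructs, was -1.67 to 0.27 and included 0. Across the pool, 11.1% of these main effects were called lower. The average for mef2:CD2- cells was -0.54 (9 mutated and 7 intact tags on 3 backgrounds, exact permutation, p = 0.060, adjusted p = 0.17, 95% interval -1.41 to 0.32), which was not called, where 22.2% of main effects in the pool were called lower. Each tag of a construct counts equally in it, on the log2 scale, whereas the fold changes above are ratios of arithmetic means. On the Deaf1 and Schlank background the tag means gave -0.53, beside a fold change of 0.882. Tag 1 of the triple mutant, with 3 observations in mef2:CD2- cells, had a mean log2 activity of -1.02. The per-collection averages ran from -0.94 to -0.45 for twi:CD2+ cells and from -0.59 to -0.26 for mef2:CD2- cells, all below 0. The call in twi:CD2+ cells was lost without any 1 of the 4 tags of the wild type and the CG12236-PB mutant (exact permutation, adjusted p = 0.23). That left the construct fewer than 4 observations and so took out the wild-type background, with -0.71 from the Schlank background alone. The twi:CD2+ call was also lost without tag 1, 3 or 4 of the Schlank mutant (exact permutation, adjusted p = 0.103) and without collection 1 (0.11). A call for mef2:CD2- cells was gained without collection 6 (exact permutation, adjusted p = 0.095) and without tag 3 of the triple mutant (0.038). Leaving out tag 2 of the Deaf1 and Schlank mutant also gave a call (exact permutation, adjusted p = 0.078). That construct rests on this tag alone, so its background was taken out as a whole.

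Mutation of the Deaf1 sites in the otherwise intact enhancer went with lower activity in mef2:CD2- cells, with each tag in each collection as an observation. There the Deaf1 mutant averaged 0.958 ± 0.236 (SD, n = 24 observations of 4 tags), with values from 0.598 through a median of 0.948 to 1.47, against 1.30 for the wild type. It was lower in 6 of 6 collections, with a fold change of 0.736 overall and 0.640 to 0.881 per collection (exact permutation test, adjusted p = 0.0023). The collection means ran from 0.819 to 1.04 in the mutant and from 1.17 to 1.61 in the wild type and did not overlap, although single values did. The call held in week 1 alone (fold change 0.763, exact permutation test, adjusted p = 0.043) and was lost in week 2 alone (fold change 0.711, adjusted p = 0.11). In twi:CD2+ cells the Deaf1 mutant averaged 1.35 ± 0.647 (SD, n = 12 observations of 4 tags), against 1.38 for the wild type, a fold change of 0.979 that did not pass (exact permutation test, adjusted p = 0.62). Its collection means of 1.35, 1.34 and 1.37 were nearly equal, while its tags differed widely within a collection, from 0.632 to 2.78 in collection 3.

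On the other backgrounds the Deaf1 mutation gave no call in either population. Added to the Schlank mutant in mef2:CD2- cells, it went with a mean of 1.19 against 1.07 (fold change 1.12, exact permutation test, adjusted p = 0.57). Added to the Schlank and CG12236-PB double mutant, the fold change was 0.926 for twi:CD2+ cells (exact permutation test, adjusted p = 0.94) and 1.25 for mef2:CD2- cells (adjusted p = 0.74). The average over 2 backgrounds was -0.24 on the log2 scale for twi:CD2+ cells (95% interval of the fit to tag means -1.16 to 0.68). For mef2:CD2- cells it was -0.09 over 3 backgrounds (-0.91 to 0.74). The Schlank background, which enters only there, rests on the single tag of the Deaf1 and Schlank mutant.

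Mutation of the Schlank sites gave the averages over backgrounds nearest to 0. For mef2:CD2- cells the Schlank mutant was below the wild type in 5 of 6 collections, with means of 1.07 and 1.30 and a fold change of 0.818 (exact permutation test, adjusted p = 0.025). That call was lost without tag 1 of the wild type (adjusted p = 0.24), without collection 1 (0.13) and in week 2 alone (0.29). Over the twi:CD2+ collections, it averaged 1.52 ± 0.649 against 1.38, a fold change of 1.10 (exact permutation test, adjusted p = 0.94), and was higher in 2 of 3 collections. Added to the CG12236-PB mutant, the Schlank mutation left activity nearly level, with a fold change of 1.02 for twi:CD2+ cells and 1.03 for mef2:CD2- cells (exact permutation tests, adjusted p = 0.96 and 0.93). The double mutant and the CG12236-PB mutant averaged 0.889 and 0.873 in twi:CD2+ cells, and 0.838 and 0.812 in mef2:CD2- cells. Added to the Deaf1 mutant in mef2:CD2- cells, it went with 1.19 against 0.958 (fold change 1.24, exact permutation test, adjusted p = 0.31). The average over 2 backgrounds was 0.08 on the log2 scale for twi:CD2+ cells (95% interval -0.90 to 1.05). For mef2:CD2- cells it was -0.02 over 3 backgrounds (-0.87 to 0.82). The Deaf1 background, which enters only there, rests on the single tag of the Deaf1 and Schlank mutant.

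Set against the wild type, each of the 3 constructs here without CG12236-PB sites was called lower in both populations. For twi:CD2+ cells these were the single mutant, the Schlank and CG12236-PB double mutant (fold change 0.644, lower in 3 of 3 collections, exact permutation test, adjusted p = 0.043) and the triple mutant (fold change 0.596, lower in 2 of 3 collections, adjusted p = 0.094). Both calls were lost without collection 1 (exact permutation test, adjusted p = 0.46 and 0.62) or collection 3 (0.13 and 0.42). Without tag 1 or tag 4 of the double mutant its call was lost as well (exact permutation, adjusted p = 0.12 and 0.11), and that of the triple mutant was lost without its tag 2 (0.15), its tag 3 (0.14) or tag 3 of the Schlank mutant (0.101), or with no minimum of observations (0.103). The Deaf1 and the Schlank mutant, which keep the CG12236-PB sites, were not called there. So 3 of 5 mutants were called lower in twi:CD2+ cells, where 15.6% of all mutants of the pool were. All mutants of a population are set against the same wild-type observations of 2 tags, so their calls are not independent. Over the mef2:CD2- collections, 5 of 6 mutants were called lower, where 36.2% of all mutants were. The double mutant had a fold change of 0.644 there (lower in 6 of 6 collections, exact permutation test, adjusted p = 0.00057) and the triple mutant one of 0.807 (lower in 5 of 6, adjusted p = 0.014, and 0.12 without collection 2, 0.13 without tag 1 of the wild type and 0.34 in week 2 alone). The Deaf1 and Schlank mutant, on its single tag, had values of 1.60, 1.14, 0.958, 1.75, 1.13 and 0.564 in collections 1 to 6 and was not called (fold change 0.915, exact permutation test, adjusted p = 0.44). Among pairs that differ by 1 motif, 2 of 6 were called lower in the mutant for twi:CD2+ cells and 3 of 9 for mef2:CD2- cells, where 16.7% and 25.9% of such pairs of the pool were.

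These tests treat each tag in each collection as an observation, although a tag returns in every collection. With tag means as the units and the spread pooled over all constructs, none of these pairs was called in either population. The CG12236-PB mutant then stood at -0.69 ± 0.81 (SE, log2 scale) from the wild type for twi:CD2+ cells (95% interval -2.28 to 0.90) and at -0.75 ± 0.78 for mef2:CD2- cells (-2.29 to 0.78). That pooled SD of tag means was 0.81 over all constructs in twi:CD2+ cells, whereas the tags of these constructs had an SD of 0.35 about their construct. For mef2:CD2- cells the SDs were 0.78 over all constructs and 0.38 for these.

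Pairs of mutations were compared with the product of their single effects. Deaf1 and Schlank mutations gave a positive deviation in mef2:CD2- cells. Their double mutant averaged 1.19, against 0.784 for the product of both single fold changes and the wild-type mean. The log2 interaction was 0.63 (linear model, permutation of residuals, p = 0.024, adjusted p = 0.067 over 47 interactions, 95% interval of the fit to tag means -1.54 to 2.80). It was positive in 4 of 6 collections, it rests on the single tag of the double mutant, and it was the 1 of 3 interactions called in these cells, where 21.3% of interactions of the pool were called positive. With observations down to 20 DNA UMIs, which bring in tag 1 of the double mutant, it was 0.36 and was not called (permutation, adjusted p = 0.45). The call was also lost without any 1 of collections 1, 2, 4 and 5, with adjusted p of up to 0.32 (permutation), without tag 1 of the wild type (0.26), tag 3 of the Deaf1 mutant (0.17), tag 2 or tag 4 of the Schlank mutant (0.101 and 0.12), and with reads in place of UMIs (0.13). Schlank and CG12236-PB mutations had an interaction of 0.44 in mef2:CD2- cells (permutation, adjusted p = 0.25) and -0.03 in twi:CD2+ cells (permutation, adjusted p = 0.92). Deaf1 and CG12236-PB mutations, on the Schlank background in mef2:CD2- cells, had one of -0.08 (permutation, adjusted p = 1.0). The interaction in twi:CD2+ cells was 0 of 1 called, where 11.1% of interactions of the pool were called positive.

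The populations were compared directly on UMIs summed per construct. Of the 7 constructs, 0 differed between twi:CD2+ and mef2:CD2- cells at an adjusted p of 0.05 by edgeR's quasi-likelihood test, where 3.33% of the 90 constructs tested did. DESeq2 called 0 of the 7 as well, and 0 had an unadjusted p under 0.05 in either. The Schlank mutant differed by 0.51 ± 0.26 (SE, log2 scale, higher in twi:CD2+ cells, edgeR adjusted p = 0.24) and the Deaf1 mutant by 0.30 ± 0.22 (edgeR adjusted p = 0.48). Without mef2:CD2- collection 4 the Schlank mutant stood at 0.26, and without twi:CD2+ collection 3 at 0.33, against 0.37 for the Deaf1 mutant. The wild type stood at 0.14 ± 0.21 (edgeR adjusted p = 0.86), and the triple mutant at -0.03 ± 0.31 (edgeR adjusted p = 0.98). The effect of each mutation was then compared between the populations over collections. The Deaf1 mutant had a mean log2 fold change of -0.02 over wild type for twi:CD2+ cells (-0.28 to 0.23 over 3 collections) and -0.44 for mef2:CD2- cells (-0.64 to -0.18 over 6 collections). That difference of 0.43 gave p = 0.036 in an exact permutation test of 3 against 6 collections, whose smallest possible p is 0.024, and did not pass after adjustment over all 63 mutants measured in both populations (adjusted p = 0.75). The Schlank mutant had 0.16 for twi:CD2+ cells and -0.30 for mef2:CD2- cells (exact permutation test, p = 0.083, adjusted p = 0.88). The CG12236-PB mutant had -0.66 for twi:CD2+ cells and -0.75 for mef2:CD2- cells (exact permutation test, p = 0.81, adjusted p = 0.98). None of the 63 mutants was called by this test (0%), and 3 had an unadjusted p under 0.05. Even at the smallest possible p, 1 mutant alone could not pass the adjustment over 63. The absence of calls therefore does not show that the effects are equal. The call of the Deaf1 mutant against wild type in mef2:CD2- cells alone is thus not shown to differ from its value in twi:CD2+ cells.

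The tags of 1 construct agreed least in the triple mutant for mef2:CD2- cells and in the Schlank and CG12236-PB double mutant for twi:CD2+ cells. Over the mef2:CD2- collections, tag means of the triple mutant ran from 0.723 for tag 2 to 1.51 for tag 3, a ratio of 2.08. Tag 3 gave 1.07, 0.639, 1.06, 2.59, 1.13 and 2.54 in collections 1 to 6, and tag 2 gave 0.593, 0.762, 0.668, 0.765, 0.804 and 0.744. All values of the construct over 1 in week 2 were thus those of tag 3, and without tag 2 its fold change to wild type was 0.975 and no longer called (exact permutation test, adjusted p = 0.23). Tag 1 of the triple mutant passed in 3 of the 6 collections, with 1.74, 0.508 and 0.135 in collections 1, 2 and 6. Over the twi:CD2+ collections, all 3 tags of the triple mutant were highest in collection 2, with 1.63, 1.29 and 1.24 for tags 1 to 3. They gave 0.484, 0.395 and 0.791 in collection 1, and 0.645, 0.185 and 0.759 in collection 3. Without collection 1, its fold change to wild type in twi:CD2+ cells was 0.763 (exact permutation test, adjusted p = 0.62), and without collection 2 it was 0.362 (adjusted p = 0.039). In the Schlank and CG12236-PB mutant, tag means ran from 0.671 to 1.32 in twi:CD2+ cells, a ratio of 1.96, while those of the wild type differed by a ratio of 1.02 there and 1.23 in mef2:CD2- cells. Over the 20 tags with values in both populations, the mean log2 activities had a Spearman correlation of 0.54, given as a description since tags of 1 construct share its activity, and 14 tags were higher in twi:CD2+ cells. The GC share of a tag, 15 to 70% here, had a Spearman correlation of 0.24 with its deviation from the construct for twi:CD2+ cells and 0.10 for mef2:CD2- cells (19 tags each, as a description).

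The whole set of constructs spanned a narrow range for this pool. The highest and lowest construct means of ChIPCRM2497 differed 1.84-fold for twi:CD2+ cells and 1.60-fold for mef2:CD2- cells. Among the 12 series with at least 4 constructs this was 2 from the smallest in both populations, where the medians were 2.61-fold for twi:CD2+ cells and 5.71-fold for mef2:CD2- cells. ChIPCRM2847 and ChIPCRM5857 carry mutations of the same 3 motifs. From the fit to tag means, the log2 effect of the Deaf1 mutation for twi:CD2+ cells was -0.14 in ChIPCRM2497, against -2.55 in ChIPCRM2847, a difference of 2.41 (95% interval 0.52 to 4.30). That was the 1 of 14 such differences whose interval left out 0, with no adjustment for their number. For mef2:CD2- cells the same difference was 1.54 (95% interval -0.28 to 3.37). For the CG12236-PB mutation in twi:CD2+ cells, ChIPCRM2497 differed from ChIPCRM2847 by 1.24 (95% interval -0.82 to 3.29) and from ChIPCRM5857 by -0.52 (-2.68 to 1.63). The log2 effect of the Schlank mutation for twi:CD2+ cells, from the same fit, was 0.08 in ChIPCRM2497, against 1.87 in ChIPCRM5857 (difference -1.78, 95% interval -3.68 to 0.11).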

How the data were processed

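QeFS libraries came from 9 collections, each with 1 RNA and 1 DNA library of the same sorted cells. The authors deposited, per library, counts of UMIs and of reads on each tag, without normalization. Per the paper's methods, reads were trimmed with cutadapt (version 1.14 in the submitters' processing notes), tags were aligned with bowtie, and the 8 bases that open a read were the UMI. No other column holds sample values.

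Activity was the share of RNA UMIs over the share of DNA UMIs, with at least 65 DNA UMIs per tag and collection and 4 observations per construct. Constructs of 1 enhancer were compared by a Kruskal-Wallis statistic (100000 permutations) and exact two-sided permutation tests of mean ranks. Tags were permuted within backgrounds for main effects, and residuals of log2 activity (100000 permutations) for interactions. For pairs, main effects and interactions, p-values were adjusted by Benjamini-Hochberg over all enhancers of a population, with a threshold of 0.1. A pair was called only where the unadjusted Kruskal-Wallis p of its series was under 0.1 too. That p was 0.0032 for twi:CD2+ and 0.0011 for mef2:CD2- cells here. Comparisons of the populations were adjusted over all constructs, or over all mutants with a threshold of 0.1. Intervals came from a linear fit to tag means with the spread pooled over all constructs. Populations were compared with edgeR 4.0.16 (minimum of 10 counts in each library for a construct, TMM, a term per collection, threshold 0.05) and DESeq2 1.42.0 in R 4.3.3. Other steps ran in Python 3.11.15 (pandas 2.3.3, scipy 1.17.1, numpy 2.4.6), and the tests were tried on simulated data. All 7 constructs and their tags were reported, and they and the tests were chosen with earlier results of these data known.

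Both libraries of a collection are paired by origin: their deviations from the group means over constructs correlated at 0.18 to 0.80 (median 0.54, 9 collections). Collections are separate days of 1 fly pool, so p-values measure the spread between tags and days, not between independent transformant pools. UMIs of the same sequence are counted once, which lowers the highest count of these tags, 16765, by a factor of 1.16 at most. Alternatives were other DNA minimums (20 and 200), reads for UMIs, a collision correction, a collection block, each collection, week or tag left out, tag means as units and other test distributions.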

Additional observations from a re-analysis of the deposited data

Results flagged for a closer look

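Over mef2:CD2- cells, 24 groups of 4 to 6 collection values were examined for 1 value far from the rest, which chance gives in about 1 in 20 groups, and 3 stood apart. The wild-type mean over tags was 1.61 in collection 5, against 1.17 to 1.29 in the other 5 collections, and tag 1 supplied it with 2.18. Tag 3 of the CG12236-PB mutant gave 1.43 in collection 3, against 0.572 to 0.867 in the others. Tag 1 of the Schlank mutant gave 2.55 in collection 4, on 86 DNA UMIs, against 0.976 to 1.20 in the others.

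Tags below the minimum of 65 DNA UMIs also carried RNA. Tag 1 of the Deaf1 and Schlank mutant had 12 to 26 DNA UMIs in 3 twi:CD2+ libraries and 13 to 30 in 6 mef2:CD2- libraries. Summed over collections, it had 185 RNA and 52 DNA UMIs in twi:CD2+ cells, an activity of 1.47 (95% counting interval 1.08 to 2.00), and 239 RNA and 113 DNA UMIs in mef2:CD2- cells, an activity of 0.351 (0.280 to 0.438). The value for mef2:CD2- cells lies far below the mean of 1.19 of the other tag of that construct. Tag 3 of the wild type had 5 RNA and 3 DNA UMIs in mef2:CD2- cells in all, an activity of 0.276 (0.066 to 1.16). These intervals cover counting error only.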

How the results depend on the processing

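Calls against the wild type held best for 2 constructs. In mef2:CD2- cells the CG12236-PB mutant and the Schlank and CG12236-PB mutant stayed called lower in each week alone, without any single collection or tag and under the other alternatives run, except that the call was lost with tag means as units. These calls rest on ranks, and the size for the Schlank and CG12236-PB mutant was less settled. With observations down to 20 DNA UMIs, its fold change to the Schlank mutant went from 0.787 to 1.12. The constructs rest on 1 to 4 tags and on 3 or 6 collections. Values that were not called turned direction under several settings, many of them close to no change. Others lay further off as ratios of arithmetic means, such as the Deaf1 mutation on Schlank and CG12236-PB in mef2:CD2- cells. Its fold change went from 1.25 to 0.821 with a minimum of 20 DNA UMIs. By other measures this effect was close to no change before that setting too. The fit to tag means gave 0.011 on the log2 scale. The geometric means were 0.851 for the triple mutant and 0.793 for the Schlank and CG12236-PB mutant.

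With tag means as units and the spread pooled over all constructs, the pairs called that differ by 1 motif came to 0 in both populations and the interactions called in mef2:CD2- cells to 0. With the spread pooled within each enhancer, an alternative chosen after seeing the data, 1 such pair was called for twi:CD2+, 0 for mef2:CD2-, and 0 interactions. The replicate block, which removes a term for each collection, left 1 such pair called for twi:CD2+ (the CG12236-PB mutant against wild type went to an adjusted p of 0.12 by the exact permutation test), and it changed no other call. In week 2 alone 1 such pair was called for mef2:CD2-. Interactions called there were 0 with a minimum of 20 DNA UMIs, 2 with a minimum of 200, 0 with reads in place of UMIs, and 0 in week 1 and in week 2 alone, where the Deaf1 and Schlank mutant had too few observations for its interaction to be fitted.

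Directions turned as follows, in values that were not called. With a minimum of 20 DNA UMIs, the Schlank main effect for twi:CD2+ was -0.11 (log2), and for mef2:CD2- the fold change was 0.998 for the Deaf1 mutation on the Schlank background, 1.12 for CG12236-PB on Schlank and 0.821 for Deaf1 on Schlank and CG12236-PB. With reads, the Schlank and CG12236-PB interaction for twi:CD2+ was 0.12, and the log2 difference of twi:CD2+ from mef2:CD2- (edgeR) was 0.10 for the triple mutant and 0.0013 for the Schlank and CG12236-PB mutant. With no replicate block in edgeR it was -0.11 for the Deaf1 and Schlank mutant and 0.041 for the Schlank and CG12236-PB mutant. In week 1 alone the Schlank mutation on the CG12236-PB background had a fold change of 0.879 for mef2:CD2-. The effect for all 3 twi:CD2+ collections minus that for the mef2:CD2- collections was -0.29 for the CG12236-PB mutation with week 1 of mef2:CD2- alone, and 0.091 for the Schlank and CG12236-PB mutant with its week 2 alone. The weeks are those of mef2:CD2- cells, and no twi:CD2+ collection falls in either.

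Leaving out 1 collection or 1 tag at a time gave these ranges. For twi:CD2+, 0 to 2 pairs that differ by 1 motif were called, and the main effects were -0.89 to -0.52 for CG12236-PB and -0.015 to 0.14 for Schlank. Fold changes there were 0.895 to 1.08 for Deaf1 on the wild type, 0.910 to 1.17 for Schlank on CG12236-PB and 0.660 to 1.07 for Deaf1 on Schlank and CG12236-PB, and the Schlank and CG12236-PB interaction was -0.28 to 0.27. For mef2:CD2-, 0 to 1 interactions were called, and the main effects were -0.67 to -0.44 for CG12236-PB, -0.22 to 0.072 for Deaf1 and -0.17 to 0.022 for Schlank. Fold changes there were 0.812 to 1.02 for the Deaf1 and Schlank mutant against wild type, 0.923 to 1.11 for Schlank on CG12236-PB, 0.627 to 1.07 for CG12236-PB on Deaf1 and Schlank, and 0.891 to 1.51 for Deaf1 on Schlank and CG12236-PB, and the CG12236-PB and Deaf1 interaction was -0.51 to 0.12. The effect of a mutation for twi:CD2+ minus that for mef2:CD2- was -0.069 to 0.34 for CG12236-PB and -0.23 to 0.18 for Schlank and CG12236-PB. The edgeR difference of twi:CD2+ from mef2:CD2- was -0.14 to 0.27 for the CG12236-PB mutant, -0.12 to 0.42 for the Deaf1 and Schlank mutant, -0.31 to 0.13 for the triple mutant and -0.15 to 0.059 for the Schlank and CG12236-PB mutant. The cause of these changes was not tested.

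The Conover-Iman test with its own t distribution made the CG12236-PB mutation on the Schlank background called for mef2:CD2- (adjusted p = 0.083). A UMI collision correction and geometric means changed no call (34 and 22 values), nor did library totals without TMM, no filter on low counts or DESeq2 (8 values each), but over all 90 constructs DESeq2 called 11 between the populations and edgeR 3.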
